A study of Mus musculus with 56 samples.

Results

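The GA replicate hybridizations of the OV cell line covered 4 amounts of total RNA, 10 ng, 1 ng, 100 pg and 10 pg, with 2 dye-swapped arrays at each amount. They were chosen by their titles and made up 8 of the 56 arrays of the series. OV is a mouse line of ovarian surface epithelium, and by their source labels both channels of each array held OV cDNA, from a pair of parallel amplifications here called replica 1 and replica 2. The description of array 2 at 10 ng departs from this and speaks of both cell lines, and a mix-up of labels or targets at 10 ng could not be settled. The labels name no treatment, strain or age for these cells. The titles of the pair with the largest amount give none, their descriptions give 10 μg, and the study's methods give 10 ng, which was followed. According to the methods, only a part of the 10 ng cDNA entered the first PCR, whereas at the lower amounts all of the cDNA did. The first PCR products of 10 ng, 1 ng and 100 pg were then diluted before the main PCR, more strongly the larger the starting amount.

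Global amplification (GA) primes reverse transcription at the poly(A) tail of mRNA, keeps the cDNA short and near the 3' end, adds a tail to the cDNA and copies everything with 1 primer by PCR. A transcript that is present in few copies can by chance be taken up in one aliquot and missed in another, and every early difference is carried on by the later cycles. Ovarian surface epithelium is the mesothelial layer over the ovary and is known for the transcription factor Wt1 and for simple keratins, features shared with other mesothelia.

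Array 1 carried replica 1 in Cy3 and array 2 carried it in Cy5 at every amount. Per probe and array the files hold the log2 ratio of one dye to the other. It was taken to be Cy5 over Cy3, and its sign was reversed on array 1 to give replica 1 over replica 2, so that a value of 1 is a 2-fold higher level in replica 1. The methods give the direction of the ratio both ways. With the opposite reading the names of the replicas would change places and all sizes would stay. For unamplified cDNA, turned in the same way to OV over 3T3 fibroblasts, Wt1 was higher in OV on 4 of 4 arrays (mean log2 3.65, from 3.32 to 4.38), as were Upk1b, an uroplakin gene (4.26), and the keratin gene Krt19 (3.17). In the list of ovarian surface and mesothelial genes, 25 of 30 probes with values were higher in OV, 14 of them over 2-fold, and 2 were over 2-fold lower. This count was not set against all probes. The matrix genes Col1a1 (1.47) and Sparc (1.14) were also higher in OV on 4 of 4 arrays, and the vimentin gene Vim (-0.85) on 0 of 4. Krt18, a partner of Krt8 in simple epithelia, was lower in OV on 4 of 4 arrays (-0.75).

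The number of probes with a value did not fall with the amount of RNA. Of 21766 probes other than controls, both arrays held a value for 9708 at 10 ng (44.6%), 4686 at 1 ng (21.5%), 9258 at 100 pg (42.5%) and 15845 at 10 pg (72.8%). The single arrays held 10661 and 12151 values at 10 ng, 4856 and 10589 at 1 ng, 12905 and 10317 at 100 pg, and 16421 and 17649 at 10 pg. The lowest count was thus that of array 1 at 1 ng, whose partner held 10589, and the highest counts were those of both arrays with the least RNA. The files give no intensities and no reason for missing values, so signal over background is unknown and a value is no proof of expression. The probes at the lowest amount included most of the others: 90.5% of those at 10 ng, 98.5% of those at 1 ng and 96.2% of those at 100 pg also had values at 10 pg. Values on both arrays at 1 amount alone were found for 4251 probes at 10 pg, 716 at 10 ng, 162 at 100 pg and 10 at 1 ng. At all 4 amounts 3191 probes had values and at none 4820.

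The spread between GA replicas was widest at 10 pg. It was measured as the coefficient of repeatability (CR), 2 SD of the log2 ratios over probes. On the single arrays CR was 0.753 and 0.855 at 10 ng, 0.501 and 0.539 at 1 ng, 0.679 and 0.849 at 100 pg, and 1.47 and 1.01 at 10 pg. The ranges of 10 ng and 100 pg overlapped, and both arrays of 10 pg lay above all the others. CR of the averaged pair was 0.496, 0.440, 0.691 and 1.20 from the highest to the lowest amount, and on the 3191 probes with values on all 8 arrays 0.482, 0.459, 0.708 and 1.28. For comparison, 1 array of OV cDNA against itself after GA had a CR of 0.286, and 1 array of unamplified OV replicas 0.261. There was 1 pair of replicas at each amount, so no test between amounts was run.

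In terms of single probes, an average of over 2-fold between replicas was found for 60 of 9708 probes at 10 ng (0.618%), 19 of 4686 at 1 ng (0.405%), 189 of 9258 at 100 pg (2.04%) and 1582 of 15845 at 10 pg (9.98%). At 10 pg they were divided evenly, with 781 probes higher in replica 1 (4.93%) and 801 lower (5.06%). At 100 pg 41 were higher and 148 lower. A difference of over 4-fold was seen for 1, 0, 10 and 208 probes at 10 ng, 1 ng, 100 pg and 10 pg, respectively. The counts depended on the array at 10 pg, where array 1 alone gave 2435 of 16421 probes and array 2 alone 1082 of 17649. At 100 pg the single arrays gave 275 of 12905 and 426 of 10317. At 1 ng they gave 37 of 4856 and 101 of 10589, so the larger count there came with more probes with values.

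Dye-swapped arrays repeated the same differences at the low amounts but not at 10 ng. The Pearson correlation of array 1 with array 2 over probes was -0.234 at 10 ng, 0.436 at 1 ng, 0.582 at 100 pg and 0.820 at 10 pg. The sign was the same on both arrays for 37.8%, 63.0%, 65.4% and 79.7% of probes. These are descriptions across probes, which by the labels share the same pair of targets and are not independent replicates. The disagreement of a pair, 1/2 of the difference of the turned arrays, had a CR of 0.626 at 10 ng, 0.278 at 1 ng, 0.365 at 100 pg and 0.428 at 10 pg. It holds dye effects, noise and any other difference between the arrays, and was larger than the CR of the average at 10 ng and smaller at the other 3 amounts. Pairs of OV replicas made by SMART, the other PCR method of the study, also failed to repeat at the larger amounts, with r of -0.202 at 10 ng, -0.310 at 1 ng, 0.030 at 100 pg and 0.538 at 10 pg.

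**Figure D1:**
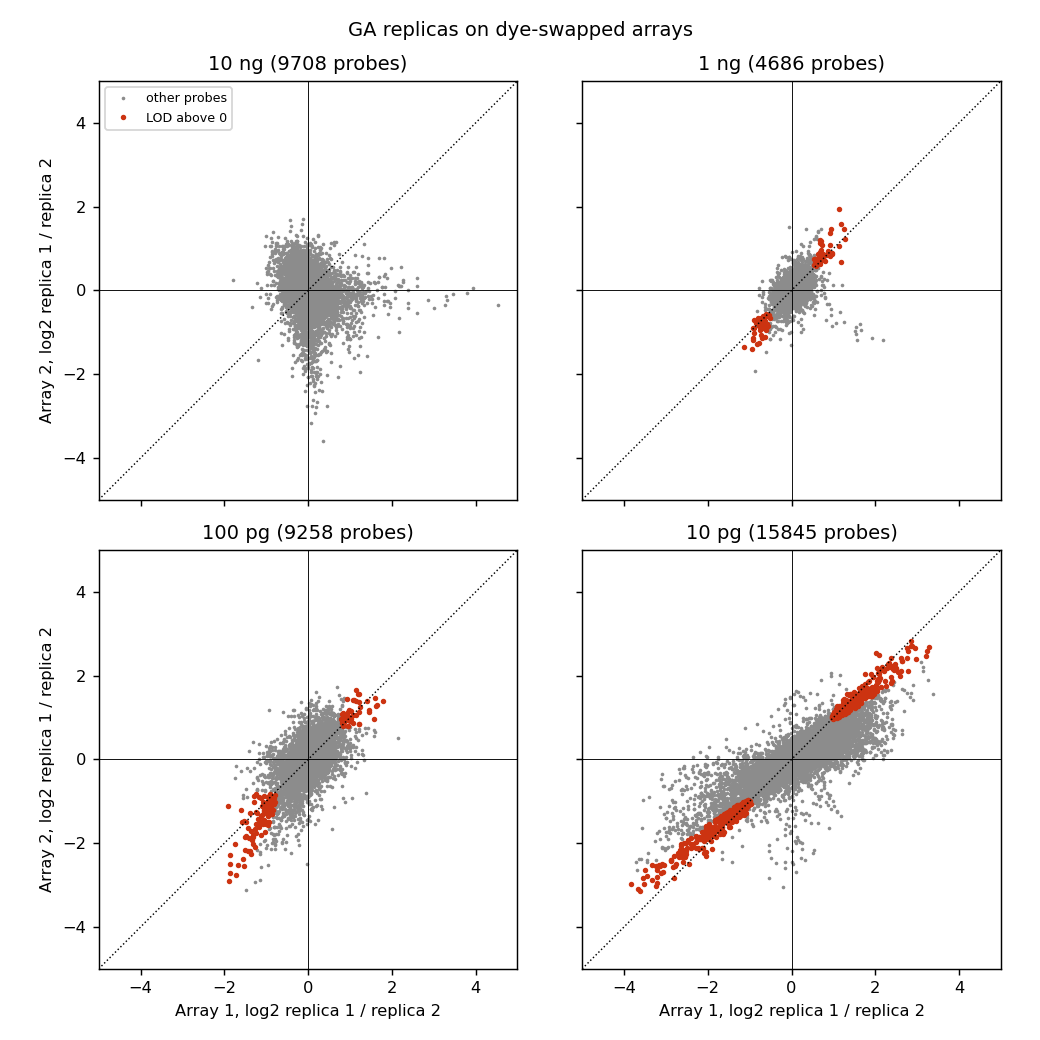
Log2 ratio of replica 1 over replica 2 on array 2 against array 1, 1 point per probe with values on both arrays. Points in red had an LOD above 0. At 10 pg the points lie along the dotted line of equal values (r = 0.820), and at 10 ng they spread along both axes (r = -0.234).

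At 10 ng the arrays of the pair did not carry the same differences, and the 10 ng averages rest on arrays that disagree. Array 1 had 270 probes over 2-fold, of which 259 were higher in replica 1. Array 2 had 396, of which 301 were lower. The genes with the highest averages came from array 1 alone, among them Cytip, which encodes a cytohesin-interacting protein of lymphocytes, at 3.93 on array 1 and 0.07 on array 2. The lowest averages came from array 2 alone, such as the alanyl-tRNA synthetase gene Aars at -0.03 on array 1 and -2.77 on array 2, and the SNARE gene Stx7 at -0.03 and -2.26. All of the 10 genes named by rule at 10 ng had such a pattern, with 1 array above 1.7 in size and the other below 0.6. The control spots of Gapdh, which enter no result, had an SD of 0.494 on array 1 and 0.197 on array 2 at 10 ng, against 0.067 to 0.144 on the other 6 arrays. On array 1 most of that came from 1 spot at 6.29, without which the SD was 0.170.

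The arrays of GA targets from OV against 3T3 at 10 ng gave a second view of these replicas. The labels do not say which amplified targets they held. The difference between the mean of arrays 1 and 2 and the mean of arrays 3 and 4 of that set correlated with array 2 of the replicas at r = 0.776 over 6243 probes, and with array 1 at -0.049 over 5849 probes. Of 263 probes over 2-fold on array 2 that had a value in both sets, 263 had the same sign there, against 46 of 112 on array 1. The comparison was chosen after the values were seen. The differences on array 2 were thus found again in another set, and those on array 1 were not. Which array carries the replicas as labelled could not be settled. With unamplified OV over 3T3, array 1 correlated at 0.090 over 8759 probes and array 2 at 0.026 over 9722. Averages at 10 ng include both arrays, and single arrays are given for lists and genes that results turn on. At 10 pg the same comparison gave r = -0.041 for the average over 5554 probes.

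Each amount was tested with limma on its 2 arrays, and a probe was called at an LOD above 0, the log odds of a difference with a prior proportion of 0.01. By the labels both arrays of an amount held the same pair of targets. On that reading these p-values measure the spread of labeling and hybridization between 2 arrays, and the amplification itself has no further replicate. At 10 ng the arrays disagreed (r = -0.234) and a mix-up could not be settled. The count of calls at 10 ng is thus not comparable with the others. Called were 0 of 9708 probes at 10 ng (0%), 79 of 4686 at 1 ng (1.69%), 148 of 9258 at 100 pg (1.6%) and 513 of 15845 at 10 pg (3.24%). Higher in replica 1 were 42 of the calls at 1 ng (0.896% of probes), 53 at 100 pg (0.572%) and 243 at 10 pg (1.53%), and lower were 37 (0.79%), 95 (1.03%) and 270 (1.7%). At 10 ng an unadjusted p under 0.05 was found for 150 probes by limma, and at a Benjamini-Hochberg adjusted p under 0.05 also 0 were called. At 10 pg that threshold called 1242 probes. Fitting all 8 arrays together called 4, 13, 112 and 850 probes, and with the hybridization number as replicate block 2, 0, 92 and 794. When 1 array was left out in the joint fit, with the lone array assumed to vary like the others, calls were 168 without array 1 and 150 without array 2 at 10 ng, 0 and 0 at 1 ng, 80 and 23 at 100 pg, and 253 and 670 at 10 pg.

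At 10 pg the averages between replicas of the same RNA reached log2 values of 2.98 and -3.41, with the same sign on both arrays. Gna11, a G protein alpha subunit gene, had log2 ratios of 3.28 and 2.68 on arrays 1 and 2 (average 2.98 ± 0.193 SE, limma adjusted p = 0.0391). Next came Lmbrd1, a gene of lysosomal cobalamin export, at 3.24 and 2.60, and Cxxc1, which encodes a CpG-binding subunit of a histone methyltransferase complex, at 2.85 and 2.83. These probes were higher in replica 1 by a log2 ratio of 2.60 or more on either array. The centrosomal gene Cep89 (average 2.80) and the sialyltransferase gene St3gal1 (2.79) completed the 5 highest.

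At the other end, Ttll12, of the tubulin tyrosine ligase-like family, had log2 ratios of -3.83 and -2.98 (average -3.41 ± 0.258 SE, limma adjusted p = 0.0393). Nek3, a NIMA-related kinase gene, had -3.63 and -3.15, and Sdc2, the gene of the heparan sulfate proteoglycan syndecan 2, had -3.66 and -3.10. Nedd8, whose product is a ubiquitin-like modifier of cullins, was at -3.53 and -2.97 and Tmem141 at -3.54 and -2.83. All 10 probes named for 10 pg were called, and for each the arrays differed by a log2 ratio of 0.85 or less.

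Such sizes were not seen for these genes at 10 ng, where 8 of the 10 probes had values. There array 1 ranged from -0.400 (Gna11) to 0.457 (Nek3) and array 2 from -0.761 (Nek3) to 0.734 (Sdc2). At 100 pg, Gna11 was again higher in replica 1 (1.53 ± 0.119 SE, limma adjusted p = 0.0466) and Nek3 again lower (-1.84, not called). Cep89 had the opposite sign at 100 pg, -1.68, and was called at both amounts. The replicas of different amounts are separate amplifications, so replica 1 at 100 pg is not the same cDNA as replica 1 at 10 pg.

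At 100 pg the extremes were smaller and leaned toward replica 2. Lowest in replica 1 was Kbtbd4, a BTB-kelch gene, at -1.89 and -2.91 (average -2.40 ± 0.257 SE, limma adjusted p = 0.0466). Surf1, an assembly factor of cytochrome c oxidase, was at -1.47 and -3.12 and was not called. The others were Rnf10 (average -2.29), the growth factor gene Hdgf (-2.24) and Timm17b, a subunit of the mitochondrial import machinery (-2.18), and all 3 were called. On the upper side were Usp25, a deubiquitinase gene, at 1.78 and 1.39, Gna11, the lactate exporter gene Slc16a3 at 1.65 and 1.29, Derl1, an endoplasmic reticulum degradation gene, at 1.63 and 1.28, and Prph, the gene of the intermediate filament peripherin, at 1.41 and 1.40. All 5 were called. At 10 pg Kbtbd4 was at -2.36 and Surf1 at -2.33, Hdgf at 1.07, Timm17b at 1.30 and Slc16a3 at -2.26.

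At 1 ng differences between replicas were few. Leprotl1, a gene of endosomal sorting, had 1.14 and 1.94 (average 1.54 ± 0.190 SE, limma adjusted p = 0.0329), followed by Efr3a, which anchors a phosphatidylinositol kinase at the plasma membrane (1.39), Nbdy, the gene of a P-body microprotein (1.36), the transcription factor gene Sall3 (1.25) and the small GTPase gene Rras (1.20). Lowest were Zc3h15 (-1.39, not called), the tRNA synthetase gene Eprs (-1.25), Rnf7, the RING subunit of cullin ligases (-1.18), the phospholipid transfer gene Pltp (-1.05) and Map1lc3a, an autophagy gene (-1.05). Of these 10, 9 were called. Nbdy and Sall3 had the opposite sign at 100 pg, at -1.47 and -1.36, and Map1lc3a was at 1.81 at 10 pg.

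Signed averages did not correlate between amounts. Over shared probes r was from -0.031 (1 ng with 100 pg) to 0.031 (100 pg with 10 pg). Probes that differed at 100 pg did, however, often differ again at 10 pg in either direction. Of 185 probes over 2-fold at 100 pg with values at 10 pg, 83 (44.9%) were over 2-fold there too, against 11.7% of all 8908 shared probes. As a share of the 1045 such probes at 10 pg, the 83 were 7.94%. The sign was the same for 44 of the 83, among them Nek3, Gna11 and Fam189b (-2.04 and -3.08), which was chosen after its values were seen. Of 19 probes over 2-fold at 1 ng, 9 (47.4%) were so at 10 pg, against 11.6% of shared probes. Of 18 with values at 100 pg, 3 (16.7%) were so there, against 1.96%. Of 54 at 10 ng, 10 (18.5%) were so at 10 pg, against 11.3%. At 1 ng 0 of 19 and at 100 pg 0 of 42 probes from 10 ng recurred.

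Probes of the same gene hardly moved together at 10 pg, and the same held at 10 ng and 100 pg. For 549 genes with values on 2 probes at 10 pg, r between probes was 0.035. At least 1 probe was over 2-fold in 95 of these genes, both were in 7, and the sign was the same in 4 of the 7. At the other amounts r was 0.067 at 10 ng (233 genes), 0.343 at 1 ng (72 genes) and 0.070 at 100 pg (220 genes). For OV over 3T3 after GA of 10 pg it was 0.339 (92 genes). With unamplified OV over 3T3, arrays 1 and 2, r over 549 genes with 2 probes was 0.647, at least 1 probe was over 2-fold in 54 genes, and both were in 19, with the same sign in 19 of 19. There too a difference was thus more often seen by 1 probe than by both. Cct4, a subunit of the cytosolic chaperonin, was one of the genes in which both probes moved together at 10 pg, at 2.03 (called) and 1.09 (not called). The positions of the probes on their transcripts were not analysed here.

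Probes that unamplified targets detected were also those with the widest spread at 10 pg. Probes were sorted by how many of 6 unamplified arrays held a value. At 10 pg, both GA arrays held values for 18.3% of the 765 probes with none and for 88.8% of the 10131 probes with all 6. CR at 10 pg was 0.740 for the former and 1.35 for the latter, and 4.29% and 13.1% of their probes with values were over 2-fold. At 10 ng the share with values rose from 0.523% to 67.8% and CR was 0.446 (4 probes) and 0.514. Values for probes that no unamplified array detected were thus most frequent at 10 pg, 140 probes, against 4, 11 and 13 at 10 ng, 1 ng and 100 pg.

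**Figure D2:**
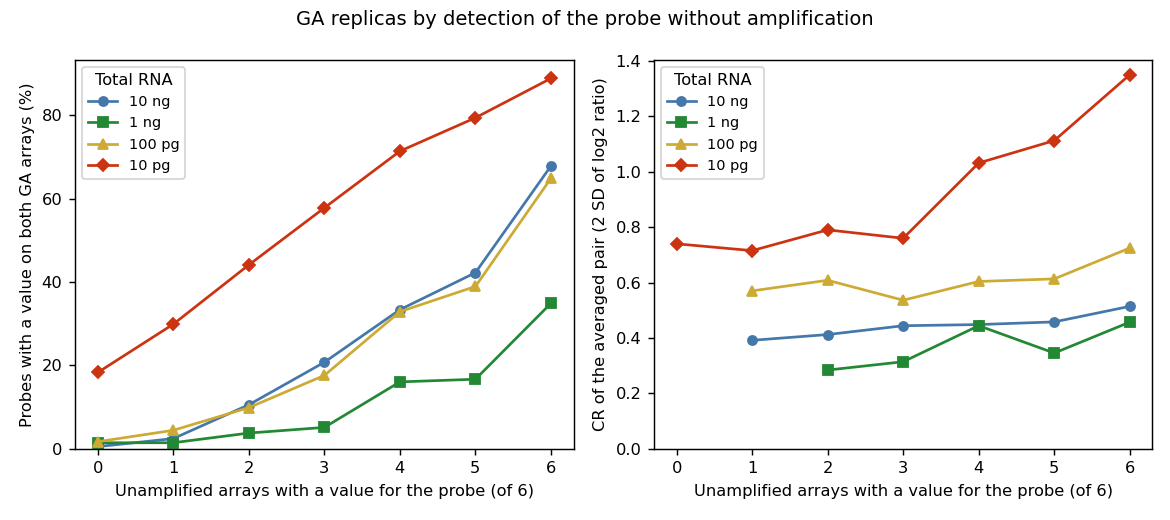
Share of probes with a value on both GA arrays (left) and CR of the averaged pair (right) against the number of 6 unamplified arrays that held a value for the probe. Lines are the 4 amounts, and CR is drawn where at least 20 probes had values. At 10 pg CR is 0.740 for probes seen by none of these arrays and 1.35 for those seen by all.

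Gene lists were described by how many of their probes had values and how widely those spread. They differed more in spread at 10 pg than at the higher amounts, with a CR from 0.474 for striated muscle genes to 1.77 for the respiratory chain, beside 1.20 over all probes. Counts of probes over 2-fold at 10 pg are to be read against 9.98% of all probes, and counts of called probes there against 3.24%. The median size of the log2 ratio over all probes was 0.23 at 10 pg, and 0.12, 0.11 and 0.15 at 10 ng, 1 ng and 100 pg.

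Ribosomal protein genes, whose transcripts are short and among the most abundant of any growing cell, were measured at every amount. Their CR of the averaged pair was 0.537, 0.367, 0.326 and 0.592 from 10 ng to 10 pg. Over all probes it was 0.496, 0.440, 0.691 and 1.20. Among lists of other cell types, striated muscle genes (0.474) and chemosensory receptors (0.622) were about as narrow at 10 pg. Immune cell genes (0.708) and liver genes (0.827) were wider. Genes of neurons and neural progenitors (1.27) and germ cell genes (1.49) were above all probes. Of 70 ribosomal protein probes, 62 had values at 10 ng, 62 at 1 ng, 64 at 100 pg and 67 at 10 pg. CR on arrays 1 and 2 was 0.749 and 1.19 at 10 ng, 0.472 and 0.439 at 1 ng, 0.375 and 0.425 at 100 pg, and 0.639 and 0.623 at 10 pg. Their widest array was thus array 2 at 10 ng, where 8 of 62 probes were over 2-fold. No averaged probe of the list was over 2-fold at any amount, and the median size at 10 pg was 0.19. Rps13 had the largest average at 10 pg (0.851 and 0.918 on the arrays, not called) and Rpl37a that at 10 ng (0.068 and -1.94, not called). Rps3 was the only one called, at 1 ng (0.681 and 1.20, average 0.94). Translation factors were wider at 10 pg, with a CR of 1.13 and 3 of 47 probes over 2-fold, all lower in replica 1 and all called, led by the ribosome biogenesis factor gene Eif6 (-1.77).

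The 4 widest lists at 10 pg were the respiratory chain (CR 1.77), splicing factors and hnRNPs (1.75), the proteasome (1.71) and glycolysis with the citrate cycle (1.71). Genes of the respiratory chain had values for 55 of 65 probes, with 12 over 2-fold, 6 in each direction, and 6 called. The complex I subunit gene Ndufc2 led them at -2.53 and -2.18 (called), and was at -0.76 at 1 ng and 0.03 at 100 pg. At 10 ng its arrays read -0.412 and 0.622. Glycolysis and the citrate cycle had 9 of 37 probes over 2-fold, 7 of them higher in replica 1, and 2 called. The phosphoglycerate kinase gene Pgk1 was called at 3 amounts with changing sign, at 0.67 at 1 ng, -1.13 at 100 pg and 1.39 at 10 pg. At 10 ng its arrays read -0.881 and 1.24.

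Proteasome genes had 8 of 38 probes over 2-fold at 10 pg (5 higher in replica 1 and 3 lower, 6 called), with the regulatory subunit gene Psmd8 at -2.69. The chaperone list, with a CR of 1.37, was less wide. There 8 of 38 probes were over 2-fold and all 8 were higher in replica 1, 6 of them called. Cct4 led at 2.03, and Hspa4, a heat shock 70 family gene, was called at 1.81 at 10 pg and at 1.30 at 100 pg. The median of the chaperone list was 0.51 at 10 pg, against -0.01 at 100 pg, 0.11 at 1 ng and 0.07 at 10 ng. Splicing factors and hnRNPs had 10 of 48 probes over 2-fold, with Hnrnpk at 3.39 and 1.57 (not called), and cell cycle genes 11 of 52, with the licensing factor gene Cdt1 at 2.89 and 1.78 (not called).

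**Figure D3:**
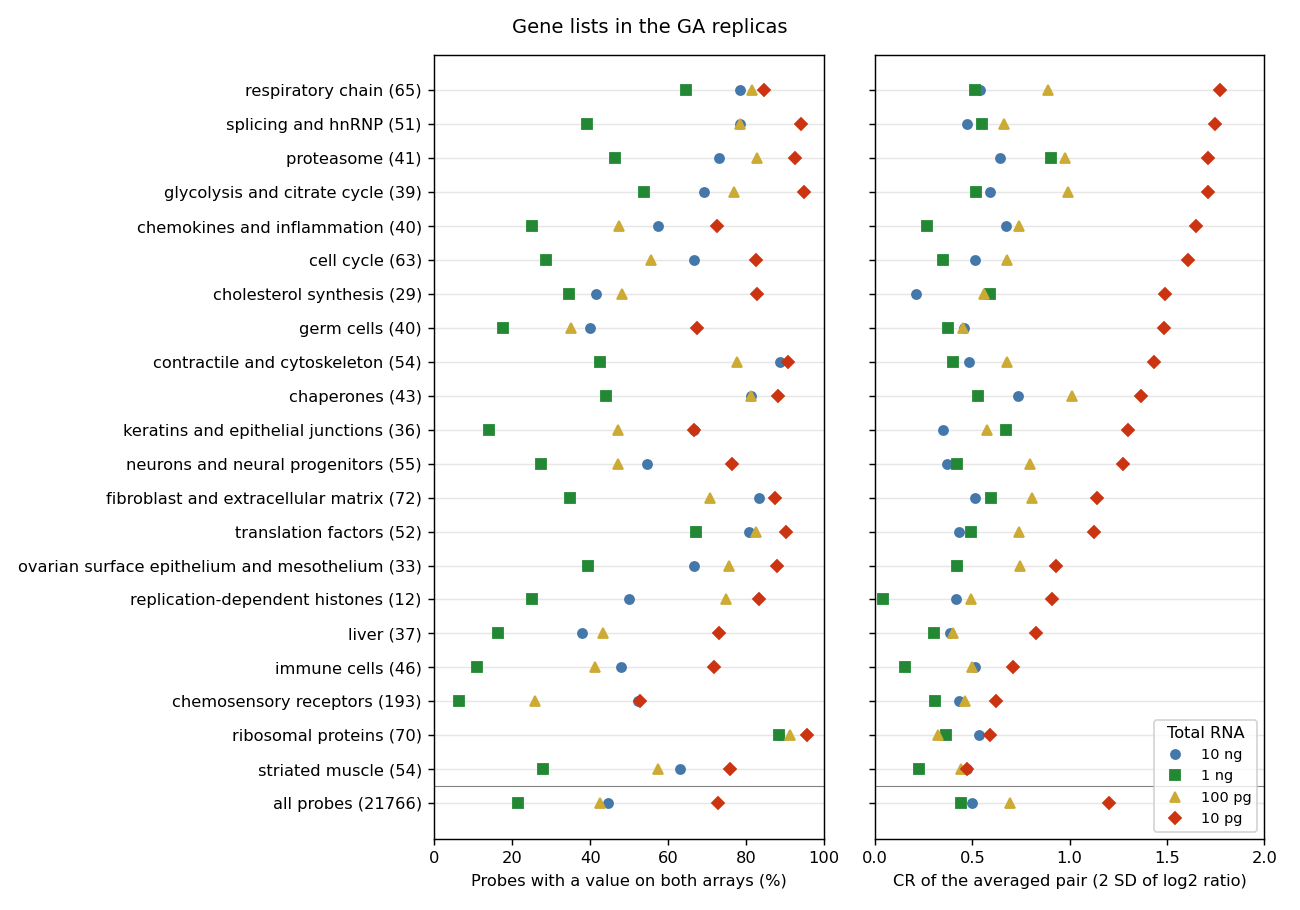
Share of probes with a value on both arrays (left) and CR of the averaged pair (right) for 21 gene lists and for all probes, at 4 amounts. Lists are ordered by CR at 10 pg, with the number of probes in parentheses. Ribosomal proteins have their largest CR at 10 pg, 0.592, with 95.7% of probes measured there, while the respiratory chain reaches 1.77.

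Genes that mark the OV line spread about as widely as all probes, or less. In the list of ovarian surface epithelium and mesothelium, 22 of 33 probes had values at 10 ng, 13 at 1 ng, 25 at 100 pg and 29 at 10 pg, and CR was 0.423, 0.422, 0.747 and 0.930. On array 2 alone it was 1.01 at 10 ng. None was called at an LOD above 0 at any amount, beside 0%, 1.69%, 1.6% and 3.24% of all probes from 10 ng to 10 pg. The list is too small for this count to set it apart from all probes. Krt19 had the largest average at 10 pg, at -1.67 and -1.10, and had been at 0.003 and 0.661 at 10 ng and at 0.164 and 0.167 at 100 pg. Wt1 had values at all 4 amounts, with averages of -0.21, 0.21, -0.13 and 0.28 from 10 ng to 10 pg. Krt8 was at 0.85 at 10 pg and had no pair of values at 1 ng, and Gata6, a transcription factor gene, had values on both arrays at 10 ng alone. Keratins and epithelial junctions had 5 of 36 probes with values at 1 ng (13.9%, against 21.5% of all probes). At 10 ng and at 10 pg they had 24 (66.7%, against 44.6% and 72.8% of all probes).

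Matrix and mesenchymal genes were of intermediate spread. The list of fibroblast and extracellular matrix genes had values for 60, 25, 51 and 63 of 72 probes from 10 ng to 10 pg, and 3 of 63 were over 2-fold at 10 pg, all higher in replica 1. The lysyl oxidase-like gene Loxl1 was called at 1 ng (-0.612 and -0.574 on the arrays) and at 100 pg (-0.991 and -1.02) and was at 0.10 at 10 pg. The collagen gene Col1a1 was at -0.57 at 1 ng and -0.88 at 10 pg, and Sparc, which encodes a matrix glycoprotein, at 0.91 at 10 pg, with neither called. Vim, the vimentin gene, was at 0.62 and 0.96 on the arrays of 10 pg and at 0.22 and 0.89 on those of 1 ng.

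Common reference genes stayed below 2-fold on all 8 arrays. Actb had averages of -0.12, -0.04, -0.28 and 0.25 from 10 ng to 10 pg, Tpt1 of -0.16, -0.05, 0.09 and -0.04, and Rplp0 of -0.16, 0.05, -0.17 and 0.03. The Gapdh probe other than the control spots was at 0.761 and 0.463 on the arrays of 10 ng, at -0.528 and -0.080 on those of 10 pg and between -0.143 and 0.137 on the other 4 arrays. Eef1a1, an elongation factor gene, was at 0.497 and 0.594 at 10 pg. None of these was called at any amount.

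**Figure D4:**
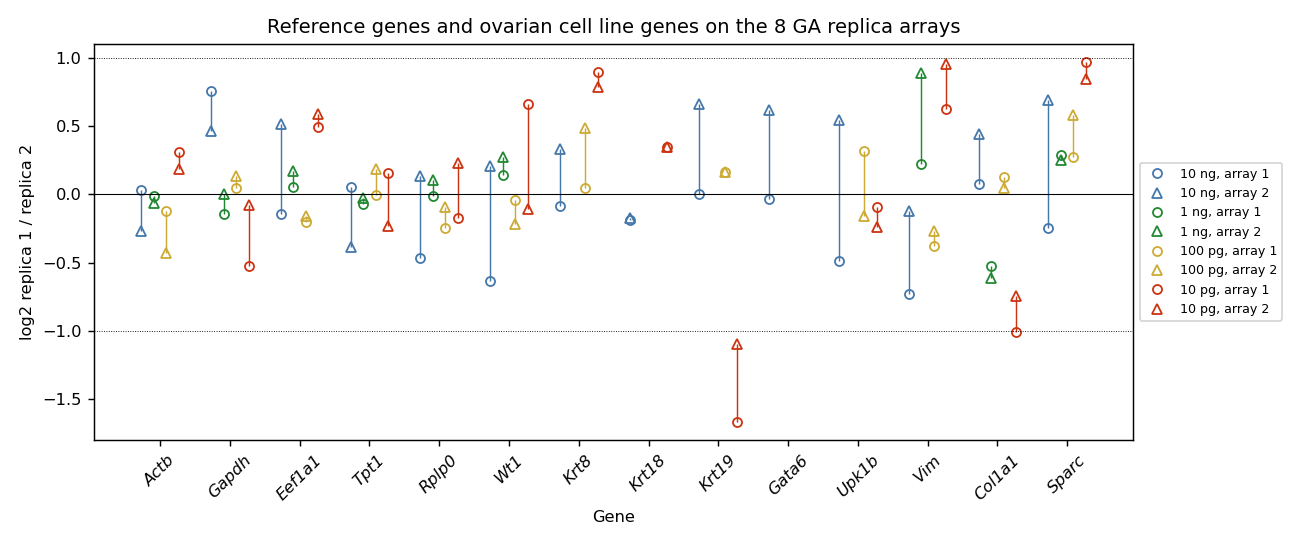
Log2 ratio of replica 1 over replica 2 on array 1 (circles) and array 2 (triangles) for 14 genes at 4 amounts, with a line joining both arrays of an amount and dotted lines at 2-fold. Genes with several probes are shown by their mean. Krt19 and Col1a1 at 10 pg are the points beyond the lines.

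Values were also present for genes typical of other cell types. The 193 probes of chemosensory receptors, which serve smell and taste, had values for 101 at 10 ng, 12 at 1 ng, 50 at 100 pg and 102 at 10 pg. These were 52.3%, 6.22%, 25.9% and 52.8%, against 44.6%, 21.5%, 42.5% and 72.8% of all probes. On the array of unamplified replicas 70.5% of the receptor probes had a value, against 78.1% of all probes. Their CR was 0.432 at 10 ng and 0.622 at 10 pg, and 1 of 102 was over 2-fold, Olfr44 at -1.28 and -1.18 (called). Striated muscle genes had values for 41 of 54 probes at 10 pg (75.9%, against 72.8% of all probes) and none over 2-fold, with a CR of 0.474. Immune cell genes had 1 of 33 and liver genes 2 of 27 over 2-fold. Germ cell genes were wider, with a CR of 1.49 and 4 of 27, among them the spermatogenesis gene Spata16 at 3.14 and 2.11 (not called). Genes of neurons and neural progenitors were close to all probes, with a CR of 1.27 and 4 of 42 over 2-fold (9.52% against 9.98%), and the neurofilament gene Nefl was at -2.18 (called).

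The remaining lists lay in the same range at 10 pg. Contractile and cytoskeletal genes had 8 of 49 probes over 2-fold and a CR of 1.44, cholesterol synthesis 6 of 24 and 1.49, and chemokines and inflammation 6 of 29 and 1.65. The chemokine gene Ccl7 was at -2.65 and -1.47 (not called). Of replication-dependent histones, most of whose mRNAs lack a poly(A) tail, 10 of 12 probes had values at 10 pg, 9 at 100 pg, 3 at 1 ng and 6 at 10 ng, and 1 was over 2-fold. Their probes do not tell tailed from untailed transcripts.

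The part of the ratio that stays with the dye was tested over the 8 arrays for the 3191 probes with all values. It was called for 2 probes (0.0627%) at a limma adjusted p under 0.05. The kinase gene Mapk14 was lower in Cy5 than in Cy3 on 8 of 8 arrays, from -0.80 to -1.62 (-1.27 ± 0.0765 SE, adjusted p = 0.00154), and the Rab GTPase gene Rab1a on 8 of 8, from -0.93 to -1.92 (-1.24 ± 0.0971 SE, adjusted p = 0.00489). An unadjusted p under 0.05 was found for 138 probes (4.32%). Without the 1 ng pair 0 probes were called, without the 10 ng pair 1, without the 100 pg pair 3 and without the 10 pg pair 2. The turned averages of a dye-swapped pair cancel this part, whereas a single array does not.

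SMART, a PCR method in which the reverse transcriptase switches template at the 5' end, was applied to OV replicas at amounts of the same names, with 8 arrays. The labels of its 1 ng arrays also give 100 pg. CR of the averaged pair was 0.270, 0.143, 0.331 and 0.635 from 10 ng to 10 pg. GA was higher at 4 of 4 amounts, with a mean of 0.708 ± 0.348 (SD, n = 4 amounts) against 0.345 ± 0.209. The SD includes the differences between amounts. An exact two-sided permutation test that did not pair the amounts was not passed (p = 0.114, adjusted over 2 tests 0.229, smallest possible p 0.0286). With signs permuted within amounts p was 0.125, the smallest possible, so that test could not decide. Probes with values on both arrays numbered 9443, 16036, 11000 and 7280 for SMART, with the highest count at 1 ng, where GA had its lowest, and the lowest at 10 pg, where GA had its highest. The mean difference in these counts did not pass the unpaired test either (exact two-sided permutation p = 0.743, adjusted 0.743). Without 1 ng that difference changed sign, from -1065.5 to 2363 probes. On the 6607 probes that both methods measured at 10 pg, CR was 1.21 for GA and 0.624 for SMART, and 5 probes were over 2-fold in both. They were 0.740% of the 676 GA probes over 2-fold, against 0.545% of all shared probes. Of the 36 SMART probes over 2-fold they were 13.9%, to be read against 676 GA probes over 2-fold among all 6607 shared.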

How the data were processed

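Each deposited column holds 1 log2 ratio per probe. The authors subtracted the background from spot intensities, took the ratio of the dyes and applied print-tip lowess with limma to every array. No further scaling was done here. Groups, dyes and amounts were taken from the labels and amounts of the first pair from the methods. Of 21997 probes, 231 control spots were left out. The platform annotation names 1 gene for 16632 of the remaining probes, more than 1 for 139 and no gene for 4995, and older names in the 21 gene lists were matched through RefSeq. Members, lists and tests were chosen with earlier results of these data known.

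CR is 2 SD over probes, and pairs were averaged over probes with both values. Each amount was fitted with limma 3.58.1 in R 4.3.3 (lmFit and eBayes, prior proportion 0.01, 1 residual degree of freedom). The fits were tested on simulated data. Methods were compared by exact permutation tests over amounts in scipy 1.17.1. Named were, per amount, the 5 highest and 5 lowest averages with 1 symbol, the same sign on both arrays and no clone name, the largest member of each list, up to 5 called probes per direction of the dye term, and 14 reference genes. Other genes are said to be chosen afterwards, or were given to follow a named gene through the amounts. Hybridization number and dye orientation coincide, so number and dye as a block cannot be told apart. Alternatives covered thresholds, joint fits, genes for probes, spread measures, common probes and leaving out arrays. The number of arrays limits the precision. Replicas are technical, so p-values measure technical spread.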

Additional observations from a re-analysis of the deposited data

How the results depend on the processing

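Counts of calls between GA replicas depended most on the processing. In the fit of all 8 arrays 4 probes were called at 10 ng, 13 at 1 ng and 850 at 10 pg. With the hybridization number as replicate block, which is the dye orientation, 2 were called at 10 ng, 0 at 1 ng, 92 at 100 pg and 794 at 10 pg. An adjusted p under 0.05 called 84 at 100 pg and 1242 at 10 pg, and genes in place of probes gave 98 at 100 pg. With 1 array left out, calls ranged from 150 to 168 at 10 ng, 0 to 0 at 1 ng, 23 to 80 at 100 pg and 253 to 670 at 10 pg, CR from 0.753 to 0.855, 0.501 to 0.539, 0.679 to 0.849 and 1.01 to 1.47, probes over 2-fold from 270 to 396, 37 to 101, 275 to 426 and 1082 to 2435, and probes with values from 10661 to 12151, 4856 to 10589, 10317 to 12905 and 16421 to 17649. As 2 scaled median absolute deviations the spread was 0.347, 0.314, 0.448 and 0.691. Among probes with values on all 8 arrays, 18 were over 2-fold at 10 ng, 69 at 100 pg and 367 at 10 pg, out of 3191, and the arrays correlated at -0.321, 0.540, 0.639 and 0.865, an alternative chosen after seeing the data. A value on either array was held by 10759 probes at 1 ng and 13964 at 100 pg. GA minus SMART in probes with values was -1065.5 on average over all amounts and 2363 without 1 ng. Calls of the dye term ranged from 0 to 3 with 1 pair left out. In all, 52 alternatives were labelled as keeping the result, 44 as moving it and 1 as turning its direction. Counts were labelled by a fixed fold limit and CR by the spread of the single arrays. Method comparisons were labelled by direction and a p of 0.05. Correlations on common probes were set to moved without a rule, so the tally is only a rough guide. Where values moved, the cause was not tested beyond the fewer probes or arrays that an alternative used.

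Each amount has 1 pair of replicas and 2 arrays, so the spread of amplification itself cannot be estimated within an amount. Missing values have no stated reason and no intensities were used, so a probe with a value cannot be set against its background. The arrays at 10 ng disagree, and the averages at 10 ng carry both. With array 2 alone in place of that pair, GA exceeded SMART in CR by 0.453 (exact two-sided permutation p = 0.0571), an alternative chosen after seeing the data. The direction of that difference was the same in the other alternatives, with p from 0.0857 to 0.3. With 3 amounts no p under 0.1 and with signs permuted within amounts none under 0.125 was possible, so these could not pass 0.05.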
